A study of Homo sapiens with 12 samples.

Results

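Integrin subunits and the proteins of the focal adhesion plaque were followed in MDA-MB-231 cells, a human triple negative breast cancer line that carried GFP and was grown as droplets in Matrigel. The set held 39 genes of 63568 identifiers, chosen by symbol: 16 integrin subunits and 23 plaque proteins. Each of the 39 symbols matched 1 Ensembl identifier, and all 39 passed the filter on low counts, which left 25249 genes for testing. RNA was counted in 12 samples, 2 for each of 6 conditions: cells without drug taken on day 2 (C1), cells without drug taken on day 4 (C2), and cells given Paclitaxel on day 2 at 0.0005, 0.005, 0.05 or 0.5 μM and taken on day 4. All conditions shared the line, labelled as wild type, the Matrigel and the glass-bottom plates, and per the study's methods the cells were freed from the gel enzymatically before extraction. Paclitaxel is a taxane that stabilises microtubules. The 12 samples come from 1 line, so they stand for this line in Matrigel and not for breast tumours in general. In bulk RNA, fewer cells of a type and less RNA per cell cannot be told apart.

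Integrins are receptors made of 1 alpha and 1 beta chain that bind the extracellular matrix outside the cell. Matrigel is a basement membrane extract rich in laminin and collagen IV. The laminin-binding pairs are alpha 3, alpha 6 or alpha 7 with beta 1, and alpha 6 with beta 4. The collagen-binding pairs are alpha 1, alpha 2, alpha 10 or alpha 11 with beta 1, and how well each binds collagen IV was not examined. Inside the cell, talins and kindlins switch the receptor on, the ILK-PINCH-parvin complex, paxillin and kinases gather at its tail, and vinculin, filamin, alpha-actinins and the zyxin family tie it to actin; the whole assembly is the focal adhesion, through which a cell grips and pulls on its matrix.

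The samples held 38380629 to 79169121 counts (median 65977095.5), and mitochondrial genes took 3.73 to 7.74% of them. More identifiers had a count in the treated samples (34591 to 39480) than in the untreated ones (30608 to 33824). VIM, CD44 and EGFR, markers of this line, summed to between 1313 and 2347 CPM (counts divided by the TMM-scaled size of the library), whereas the leukocyte markers PTPRC and CD3E were at most 0.281 and 0.0300 CPM. ESR1 and PGR, the hormone receptors that triple negative cells lack, were at most 0.460 and 0.0867 CPM, while ERBB2, the HER2 gene, was at 26.6 to 52.4 CPM. The lowest chi-square per degree of freedom over the 66 pairs of samples was 12.2, so each pair differed by more than sampling noise. C1 replicate 1 stood apart from C1 replicate 2: over 12245 genes with a mean of at least 5 CPM the SD of their log2 difference was 0.58, against 0.10 to 0.24 in the other conditions, and member results that rest on this pair are given below with and without a C1 sample. C1 replicate 1 had the highest total count of the 12 (79169121), and C1 replicate 2 had the lowest (38380629) and the highest mitochondrial share (7.74%).

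Against the untreated samples of day 4, 3 adhesion genes were lower at both 0.05 and 0.5 μM Paclitaxel: ITGA6 and ITGA2, the alpha chains of a laminin and a collagen receptor, and VCL, vinculin, which couples talin to actin. Of all genes tested 3.23 and 1.96% were lower at these 2 doses. These calls were not stable to the loss of 1 library: of the 12 fits that each left out 1 sample, the call of VCL was kept in 2 at each dose, that of ITGA6 in 9 and 5, and that of ITGA2 in 8 and 4, with the direction kept in all. ITGA7, another laminin-binding alpha chain, was higher at 0.05 μM, a call kept in 6 of the 12 fits. By edgeR no member passed the test at the lower doses and no other plaque member at any single dose, whereas DESeq2 also called ITGA6, ITGB3 and VCL at 0.005 μM and LPP, a relative of zyxin, at 0.05 and 0.5 μM. When the 8 treated samples were set against the 4 untreated ones, 13 of the 39 members were lower and 1 was higher, beside 11.3% lower and 13.1% higher of all genes. Each dose was compared with the same 2 C2 samples, so the dose comparisons are not independent of each other.

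VCL (GRCh37 chr10:75754951-75881121, plus strand) had 625 and 460 CPM in C1 and 551 and 500 CPM in C2. Its level was 364 and 389 CPM at 0.0005 μM, then 360 and 342, 347 and 336, and 316 and 356 CPM in the order of rising dose. All 8 treated samples lay below all 4 untreated ones, the samples at 0.0005 μM lay above those of the other doses, and the other doses overlapped with each other. The log2 change against C2 was -0.62 at 0.05 μM (SE 0.17, adjusted p = 0.0387) and -0.65 at 0.5 μM (SE 0.17, adjusted p = 0.0408) by the quasi-likelihood test of edgeR, adjusted by Benjamini-Hochberg over the 25249 genes, as are all adjusted p-values below. Its log2 slope per 10-fold dose was -0.05 (SE 0.04, adjusted p = 0.525). The exons of VCL share 1109 bases with those of AP3M1 on the opposite strand, and the strand setting of the counting is not given in the sources used here.

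ITGA6 (GRCh37 chr2:173292082-173371187, plus strand) had 262 and 200 CPM in C1 and 274 and 227 CPM in C2. With drug it had 196 and 199 CPM at the lowest dose, then 163 and 160, 155 and 145, and 167 and 132 CPM as the dose rose. Here too every treated sample lay below every untreated one, although the gap between the highest treated sample and C1 replicate 2 was under 1 CPM. Against C2 the log2 change was -0.74 at 0.05 μM (SE 0.17, adjusted p = 0.0214) and -0.74 at 0.5 μM (SE 0.17, adjusted p = 0.0274).

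ITGA2 (GRCh37 chr5:52285170-52390609, plus strand) had 392 and 352 CPM in C1 and 475 and 430 CPM in C2. The pairs at the 4 doses, from low to high, had 375 and 467, 370 and 350, 289 and 266, and 317 and 287 CPM. The samples of the 2 higher doses lay below all others, whereas those of the 2 lower doses overlapped with the untreated samples. The log2 change against C2 was -0.71 at 0.05 μM (SE 0.15, adjusted p = 0.0172) and -0.58 at 0.5 μM (SE 0.15, adjusted p = 0.0456), and the slope per 10-fold dose was -0.18 (SE 0.05, adjusted p = 0.067).

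The 250 bases upstream of the start of these 3 genes are shown because they were the members that were lower at both higher doses, and the capitals mark the motifs searched (RefSeq, GRCh38.p14; the counts use GRCh37). The windows are chr10:73997866-73998115 for VCL, chr2:172427086-172427335 for ITGA6 and chr5:52989102-52989351 for ITGA2, all on the plus strand and read 5′ to 3′.
VCL: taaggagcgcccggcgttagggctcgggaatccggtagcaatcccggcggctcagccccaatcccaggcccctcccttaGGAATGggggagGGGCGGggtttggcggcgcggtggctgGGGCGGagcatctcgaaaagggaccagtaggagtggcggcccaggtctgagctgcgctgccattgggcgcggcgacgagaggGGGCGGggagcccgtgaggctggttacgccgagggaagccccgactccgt
ITGA6: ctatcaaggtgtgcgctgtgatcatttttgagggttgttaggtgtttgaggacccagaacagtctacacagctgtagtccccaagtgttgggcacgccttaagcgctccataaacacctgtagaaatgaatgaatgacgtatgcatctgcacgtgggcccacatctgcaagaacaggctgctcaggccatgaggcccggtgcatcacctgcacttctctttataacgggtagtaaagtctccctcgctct
ITGA2: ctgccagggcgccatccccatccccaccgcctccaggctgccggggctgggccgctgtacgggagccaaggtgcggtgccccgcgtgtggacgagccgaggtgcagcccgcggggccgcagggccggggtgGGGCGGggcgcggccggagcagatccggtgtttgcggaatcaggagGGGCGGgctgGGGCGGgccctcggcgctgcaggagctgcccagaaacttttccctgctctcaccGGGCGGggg
The motifs, looked for on both strands, were the GC box of SP1 (GGGCGG), the TEAD motif (GGAATG), the AP-1 site (TGANTCA, with N for any base) and the CArG box bound by SRF. None of these overlaps another in the printed windows. VCL held 3 GC boxes and 1 TEAD motif, ITGA2 held 4 GC boxes, and ITGA6 held none of the 4 motifs. RefSeq windows were matched for 31 of the 39 members, and a GC box was found in 20 of them (64.5%) against 42.6% of all 35116 windows of this length. It was found in 15 of 19 plaque genes and in 5 of 12 integrin subunits. The TEAD motif was found in 4 members (12.9%, against 11.9% of all windows), the AP-1 site in 1 (ACTN4; 3.23% against 6.57%) and the CArG box in 2 (ITGB6 and FLNA; 6.45% against 1.16%). These matches describe letters only.

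**Figure D1:**
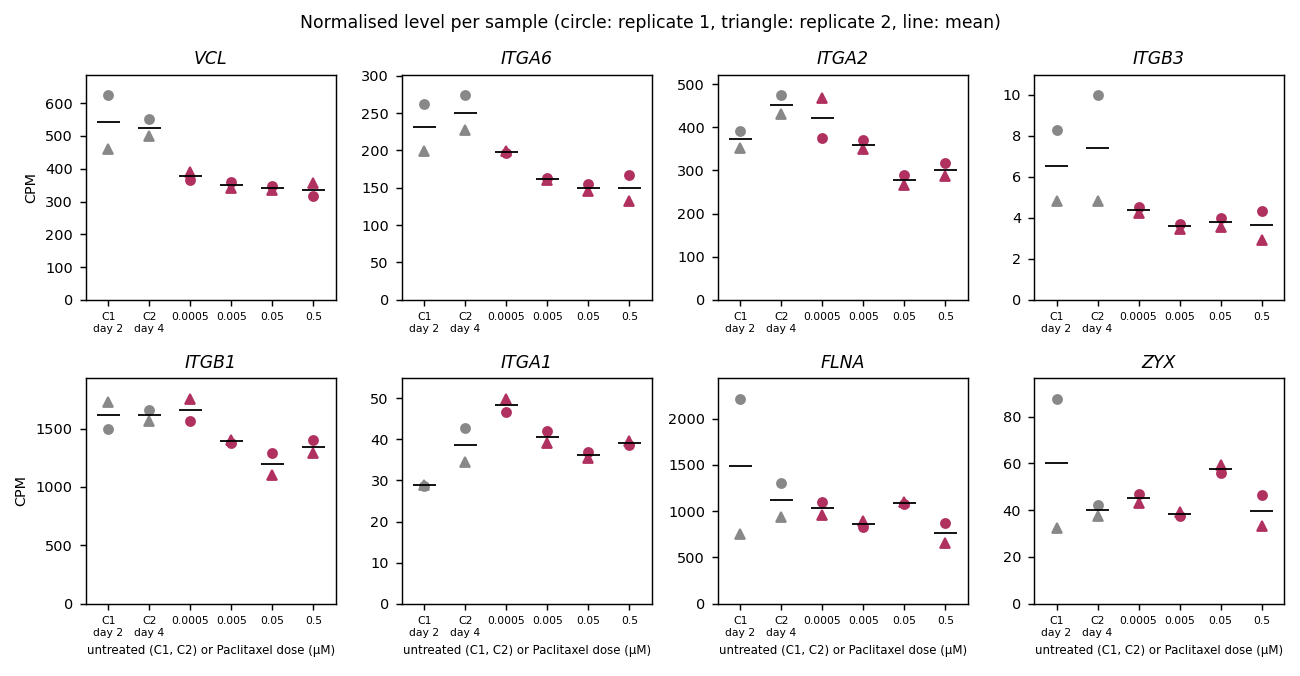
Level in CPM (y axis, from 0) of 8 members in each of the 12 samples by condition (x axis), with untreated samples in grey, Paclitaxel samples in red, circles for replicate 1, triangles for replicate 2 and a line at the mean of the pair. VCL, ITGA6 and ITGB3 lie lower in all 8 treated samples than in all 4 untreated ones, and FLNA and ZYX show the gap between the C1 samples (2214 and 754 CPM, and 87.6 and 32.4 CPM).

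The order of the integrin subunits was described per length, as CPM per kilobase of exon, since longer genes collect more reads. ITGB1, the beta chain shared by most of these receptors, stood first with a mean of 101 CPM per kilobase (SD 13.4, n = 12). ITGA3, the alpha chain of a main laminin receptor, followed with 57.6 (SD 11.1), ITGA2 with 46.1 (SD 8.70) and ITGA6 with 28.5 (SD 6.77). ITGB4, which pairs with alpha 6, had 17.4 (SD 8.36), ITGB5, a beta chain of vitronectin receptors, 15.4 (SD 4.01), ITGA5, the fibronectin receptor alpha chain, 10.5 (SD 1.98), and ITGAV, the alpha chain of vitronectin receptors, 9.33 CPM per kilobase (SD 1.22). Of these 8, each but ITGAV overlapped in range over the 12 samples with the next in the order. These ranges run across samples and do not show the order within a sample. In C1 replicate 1, where ITGA3 was at its highest (81.3), ITGB1 had 103 CPM per kilobase. A gap without overlap separated ITGAV from ITGA10 (2.19, SD 0.73) and ITGA1 (2.08, SD 0.34), both collagen-binding alpha chains. ITGB3, a beta chain of vitronectin receptors, had 0.715 CPM per kilobase (SD 0.31), and ITGB8, ITGB6, ITGA7, ITGA11 and ITGA4 had means of 0.163, 0.161, 0.124, 0.0225 and 0.00801 CPM per kilobase. ITGA4, with 0 to 13 counts per sample, and ITGA11, with 3 to 33 counts, were near the floor of the assay, whereas ITGA7 had 32 to 122, ITGB6 22 to 93 and ITGB8 63 to 220 counts.

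**Figure D2:**
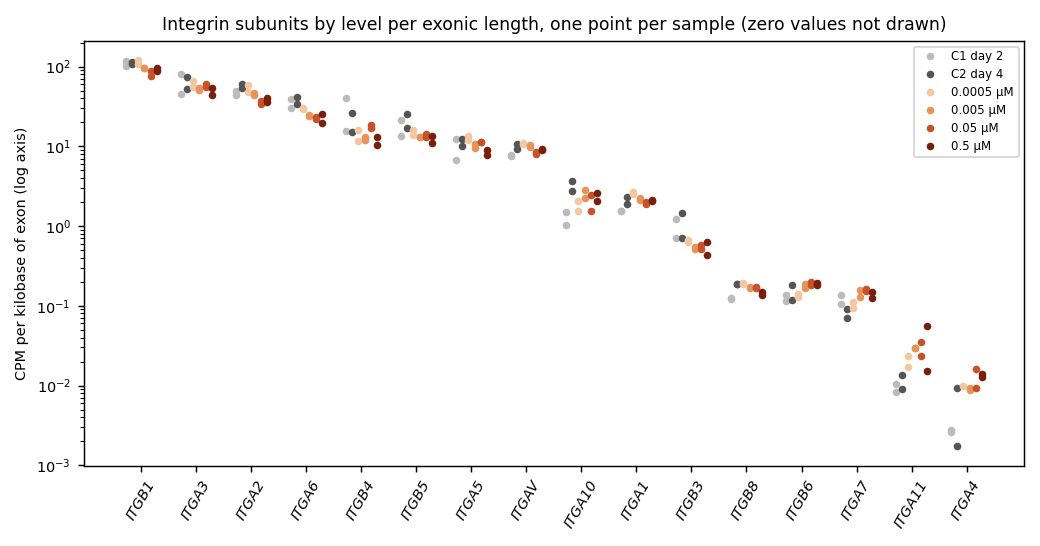
Level per exonic length (CPM per kilobase, log axis) of the 16 integrin subunits, ordered by mean, with 1 point per sample coloured by condition. ITGB1 has the highest mean at 101 CPM per kilobase, ITGA3, ITGA2 and ITGA6 follow, and the range of ITGAV does not overlap that of ITGA10.

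The alpha chains of the set, all known partners of beta 1, summed to 1.16 to 1.88 times the ITGB1 level per kilobase. Both extremes over the 12 samples were in C1. The ratio depends on the length of all annotated exons, 14561 bases for ITGB1. It does not show that alpha transcripts outnumber those of ITGB1. Among the plaque genes FLNA, filamin A, which crosslinks actin and binds beta tails, had a mean of 97.4 CPM per kilobase (SD 37.2), ACTN4, an alpha-actinin, 76.9 (SD 21.7), VASP, an actin polymerisation factor, 43.8 (SD 6.18) and VCL 41.2 (SD 9.90). The lowest were ILK (1.10, SD 0.10), the pseudokinase of the ILK complex, TNS1 (0.333, SD 0.17), a tensin, and PARVB (0.0382, SD 0.01), a parvin. The exons of ILK overlap with genes on the opposite strand, so its level is uncertain. Of the 39 members, 31 had a mean of at least 5 CPM, namely 10 integrin subunits and 21 plaque genes. The remaining 8 were ITGA4, ITGA7, ITGA11, ITGB3 (4.88 CPM), ITGB6, ITGB8, ILK and PARVB.

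From day 2 to day 4 without drug, 0 of 39 members passed edgeR's test, 6 of 39 had an unadjusted p under 0.05, and DESeq2 called 1 member. Of all genes tested 0.325% were called by edgeR and 1.09% by DESeq2, so a count of 0 is near the background. Without C1 replicate 1 edgeR called 6 members (ITGA10, ITGA5, ITGB5, TLN2, SRC and TNS3) and without C1 replicate 2 it called 12, 10 of them other genes than those 6, while 11 and 7.51% of all genes were called in these fits. All 4 collagen-binding alpha chains had a log2 change above 0 (median 0.35), whereas the laminin-binding chains had a median of -0.23. That median was 0.37 without C1 replicate 1, when 3 of the 4 laminin-binding chains were above 0, and -0.51 without C1 replicate 2, and the collagen-binding median was 0.43 and 0.36. ITGA10 had 6.49 and 9.34 CPM in C1 and 23 and 16.9 CPM in C2, a log2 change of 1.35 (SE 0.27, adjusted p = 0.0703). The pairs did not overlap, and the treated samples of day 4 lay between 9.54 and 17.5 CPM. ITGA1 had 28.6 and 29.0 CPM in C1 and 42.7 and 34.6 CPM in C2, a log2 change of 0.42 (SE 0.14, adjusted p = 0.345). ITGAV had 149 and 148 CPM in C1 and 209 and 179 CPM in C2 (log2 change 0.39, SE 0.13, adjusted p = 0.362). ITGB1 was level, with 1496 and 1728 CPM in C1 and 1660.3 and 1568 CPM in C2 (log2 change 0.00, SE 0.16, adjusted p = 0.999).

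At 0.0005 μM against C2, 0 of 39 members were called by edgeR and by DESeq2, with 5 at an unadjusted p under 0.05, beside 2.34% of all genes called by edgeR and 4.65% by DESeq2. At 0.005 μM edgeR called 0 and DESeq2 3 (ITGA6, ITGB3 and VCL), with 7 at an unadjusted p under 0.05, beside 3.28% of all genes called by edgeR and 5.39% by DESeq2. Without C1 replicate 1 the counts at these 2 doses were 3 and 9, beside 9.92 and 13.0% of all genes, and without C1 replicate 2 they were 3 and 8, beside 10.2 and 12.5%. At 0.05 μM 4 members were called (10.3% of 39), 3 lower and 1 higher, beside 8.32% of all genes. At 0.5 μM 3 members were called (7.69%), all lower, beside 6.32% of all genes. In either direction these shares were close to the background, and the members called lower (7.69% at each of the 2 doses) stood beside 3.23 and 1.96% of all genes and 5.66 and 3.46% of genes with a mean of at least 5 CPM. The member that was higher, ITGA7, had 0.819 and 0.644 CPM in C2 and 1.49 and 1.41 CPM at 0.05 μM, a log2 change of 0.98 (SE 0.25, adjusted p = 0.0308). C1 had 1.22 and 0.955 CPM of ITGA7, between these, and among genes with a mean under 5 CPM 8.31% were called higher at this dose. Leaving out a single library changed these counts: without C2 replicate 1 none of the 39 was called at either dose (beside 1.28 and 0.507% of all genes), without C2 replicate 2 they were ITGA6 and ITGB3 at 0.05 μM and ITGB3 alone at 0.5 μM (beside 3.27 and 2.25%), and without C1 replicate 1 the counts were 10 and 20 (without C1 replicate 2, 10 and 21). At 0.05 μM none was called without either sample of that dose, beside 3.49 and 1.83% of all genes. At 0.5 μM none was called when the sample left out was the first of 0.0005 μM, either of 0.005 μM or the second of 0.5 μM, and ITGA11 alone was called when it was the first of 0.5 μM, beside 1.03 to 3.84% of all genes in these 5 fits. In the fits without 1 C1 library the C1 pair no longer enters the estimate of the spread, and the share of all genes called rose to 18.9 and 19.5% (without C1 replicate 2, 19.0 and 19.9%).

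**Figure D3:**
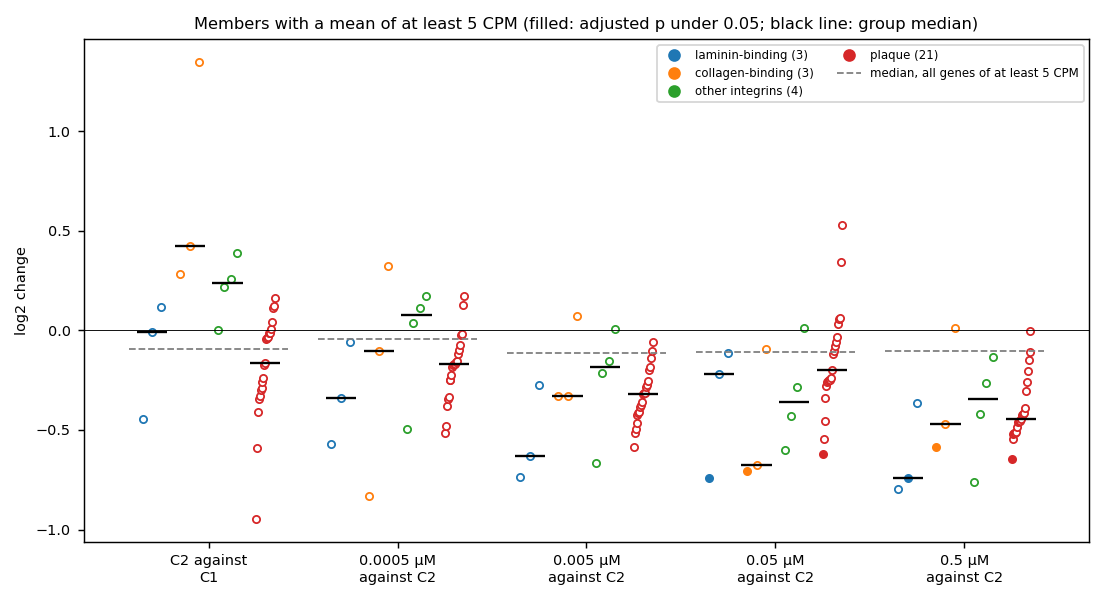
Log2 change (y axis) of the 31 members with a mean of at least 5 CPM for day 4 against day 2 without drug and for each Paclitaxel dose against C2 (x axis), in 4 groups, with filled points for adjusted p under 0.05, a black line at each group median and a dashed line at the median of all genes of at least 5 CPM. At 0.5 μM all 21 plaque genes lie below 0, with a median of -0.44 against -0.10 for all such genes, and the filled points are ITGA6, ITGA2 and VCL.

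The medians of log2 change of the laminin- and collagen-binding integrins and of the plaque genes were below 0 at each dose, and how far apart they lay depended on the scarce chains. For the 8 laminin- and collagen-binding integrin chains other than ITGB1 the median was -0.08, -0.30, -0.17 and -0.42 from the lowest to the highest dose. For the 23 plaque genes it was -0.17, -0.31, -0.12 and -0.42 in the same order. The difference of the medians, integrins minus plaque, was 0.09, 0.01, -0.05 and 0.01, with no test. Over members with a mean of at least 5 CPM, which leaves out ITGA7 and ITGA11, the integrin median (6 chains) was -0.22, -0.33, -0.45 and -0.53 and the plaque median (21 genes) -0.17, -0.32, -0.20 and -0.44, so that the integrins lay lower at 0.05 μM. The median of the 12245 genes with a mean of at least 5 CPM was -0.04, -0.11, -0.11 and -0.10, so at 0.5 μM both groups lay below it. These medians moved with the library and the composition: without C2 replicate 1 they were 0.09 and -0.01 (integrins and plaque) at 0.0005 μM, -0.05 and -0.15 at 0.005 μM, 0.11 and 0.01 at 0.05 μM, and -0.16 and -0.26 at 0.5 μM. Without C2 replicate 2 they were -0.23 and -0.29, -0.45 and -0.49, -0.44 and -0.29, and -0.62 and -0.57 in the same order. With offsets for GC content and length they were 0.07 and -0.05, -0.13 and -0.18, -0.12 and -0.07, and -0.17 and -0.23, beside -0.00 to -0.02 for all genes of at least 5 CPM. From day 2 to day 4 without drug the integrin median was 0.17 and the plaque median -0.16, a difference of 0.34. Without C1 replicate 1 both were above 0 (0.41 and 0.32, a difference of 0.09), and without C1 replicate 2 they were 0.06 and -0.48. Within the integrin chains the spread was wide: at 0.5 μM ITGA6, ITGB4, ITGA2, ITGA10 and ITGA3 had log2 changes of -0.74, -0.80, -0.58, -0.47 and -0.36, ITGA1 of 0.01, and the scarce ITGA7 and ITGA11 of 0.77 and 1.62, of which ITGA6 and ITGA2 passed the test.

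The slope over the 4 doses in the 8 treated samples was not called for any of the 39 members by edgeR, with 11 at an unadjusted p under 0.05 and 4 called by DESeq2, beside 3.06% of all genes called by edgeR and 6.48% by DESeq2. Without replicate 2 at 0.05 μM ITGA2 and ITGA5 were called, and without replicate 1 at 0.5 μM ITGA6 and ITGA2, beside 4.03 and 2.41% of all genes. The lowest slopes per 10-fold dose were those of ITGA2 (-0.18), PARVB (-0.17, SE 0.13) and ITGA5 (-0.16, SE 0.05, adjusted p = 0.0829). From the lowest to the highest dose ITGA5 had 99.3 and 87.3, 70.9 and 77.8, 84.4 and 82.7, and 65.6 and 58.1 CPM. The samples at 0.5 μM were the lowest, and those at 0.05 μM lay above those at 0.005 μM. ITGA1 was highest at 0.0005 μM, with 46.8 and 49.9 CPM, and had 42.1 and 39.1, 37 and 35.4, and 38.5 and 39.5 CPM at the higher doses (slope -0.11, SE 0.04, adjusted p = 0.142). The plaque median slope was -0.06 and the median over genes of at least 5 CPM was -0.02.

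Between all 8 treated and the 4 untreated samples, 13 members were lower, 33.3% of the 39, and 1 was higher, beside 24.4% of all genes called in either direction. Of the 31 members with a mean of at least 5 CPM, 12 were lower, against 20.4% of genes at that level. This comparison holds C1, which was taken 2 days earlier, so day and treatment cannot be told apart in the C1 samples. Of the 16 integrin subunits 4 were lower and 1 higher, and of the 23 plaque genes 9 were lower and 0 higher. Of the laminin- and collagen-binding chains ITGA6 and ITGB4 were lower and ITGA11 was higher. The median log2 change was -0.33 over the plaque genes, -0.12 over the laminin- and collagen-binding chains and -0.14 over all genes of at least 5 CPM. Over members of at least 5 CPM it was -0.34 for the plaque genes and -0.24 for the laminin- and collagen-binding chains.

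Among the laminin-binding integrins the log2 change of ITGA6 was -0.55 (SE 0.12, adjusted p = 0.00362) and that of ITGB4 -0.80 (SE 0.21, adjusted p = 0.0122). ITGB4 had 274 and 105 CPM in C1, 175 and 103 CPM in C2, and 71.0 to 126 CPM (median 88.2) in the treated samples. The treated samples overlapped with both second replicates of the untreated conditions, and without C1 replicate 1 the change was -0.44 (adjusted p = 0.104). ITGA3 was not called (log2 change -0.20, SE 0.15, adjusted p = 0.348).

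Among the collagen-binding integrins ITGA11 was higher (log2 change 1.43, SE 0.38, adjusted p = 0.0117) with 3 to 8 counts in the untreated and 11 to 33 counts in the treated samples. All 8 treated samples lay above all 4 untreated ones, which was also so for 7.39% of all genes, and 20.9% of genes with a mean under 5 CPM were called higher. Against C2 alone its log2 change was 1.33 and was not called (adjusted p = 0.0956). ITGA1 and ITGA2 were not called, with log2 changes of 0.28 (SE 0.12, adjusted p = 0.0996) and -0.28 (SE 0.14, adjusted p = 0.158). ITGB1 had a log2 change of -0.21 (SE 0.12, adjusted p = 0.235), with 1496 to 1728 CPM in the untreated and 1099.7 to 1755 CPM in the treated samples.

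Of the fibronectin- and vitronectin-binding chains both called members were beta chains of the alpha V receptors. ITGB3 (GRCh37 chr17:45331193-45391109, plus strand) had 8.26 and 4.83 CPM in C1 and 9.99 and 4.80 CPM in C2. It had 4.51 and 4.25, 3.70 and 3.47, 4.00 and 3.54, and 4.34 and 2.92 CPM at the 4 doses in rising order. All treated samples lay below all untreated ones, while in each untreated pair replicate 1 had well above the level of replicate 2. The log2 change was -0.87 (SE 0.18, adjusted p = 0.00227), and 2266 bases of its exons are shared with another annotated gene on the same strand. ITGB5 (GRCh37 chr3:124480795-124620265, minus strand) had 140 and 87.4 CPM in C1, 163 and 109 CPM in C2, and 72.6 to 104 CPM in the treated samples, which overlapped with C1 replicate 2 (log2 change -0.50, SE 0.13, adjusted p = 0.0117). Their partner ITGAV had a log2 change of 0.11 (SE 0.12, adjusted p = 0.516), and ITGA5, ITGA4, ITGB6 and ITGB8 were not called.

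Of the talins and kindlins only FERMT1, kindlin-1, was called, with a log2 change of -0.44 (SE 0.12, adjusted p = 0.0155), which without C1 replicate 1 was -0.25 (adjusted p = 0.0917). FERMT2, kindlin-2, had 195 to 210 CPM in the untreated and 167 to 223 CPM in the treated samples (log2 change -0.08, SE 0.10, adjusted p = 0.572). The talins TLN1 and TLN2 had log2 changes of -0.40 (SE 0.20, adjusted p = 0.17) and -0.32 (SE 0.17, adjusted p = 0.178). In the ILK complex PARVA, alpha-parvin, was lower (log2 change -0.49, SE 0.13, adjusted p = 0.00976), with 62.3 to 107 CPM without and 47.4 to 60.8 CPM with drug, and so was LIMS1, the adaptor PINCH1 (-0.31, SE 0.11, adjusted p = 0.0442). In the fit without C1 replicate 1 these were -0.29 (adjusted p = 0.0539) and -0.27 (adjusted p = 0.12). ILK and PARVB were not called.

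PXN, paxillin, the scaffold of the plaque, was lower (log2 change -0.51, SE 0.16, adjusted p = 0.0276), as was its relative TGFB1I1, Hic-5 (-0.49, SE 0.16, adjusted p = 0.0321). Neither was called without C1 replicate 1 (-0.26, adjusted p = 0.195, and -0.24, adjusted p = 0.235). PTK2, the focal adhesion kinase, had 194 to 221 CPM in the untreated and 170 to 188 CPM in the treated samples, which did not overlap, with a log2 change of -0.23 (SE 0.08, adjusted p = 0.0527). SRC, the partner kinase of PTK2, was not called (-0.09, SE 0.14, adjusted p = 0.673). Over all members 5 were lower in every treated than in every untreated sample (ITGA6, ITGB3, PARVA, PTK2 and VCL), 12.8% of 39 beside 5.77% of all genes and 10.5% of genes of at least 5 CPM.

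Of the actin linkers VCL (log2 change -0.60, SE 0.10, adjusted p = 0.000486) and ACTN4 (-0.49, SE 0.16, adjusted p = 0.03) were lower, and without C1 replicate 1 ACTN4 was not called (-0.27, adjusted p = 0.197). FLNA had 2214 and 754 CPM in C1, 1299.6 and 934 CPM in C2 and 656 to 1104 CPM in the treated samples, which overlapped with the untreated ones (log2 change -0.47, SE 0.22, adjusted p = 0.121). ACTN1, TNS1 and TNS3 were not called. Of the zyxin family and its partners LPP (-0.33, SE 0.11, adjusted p = 0.0413) and PDLIM7 (-0.34, SE 0.12, adjusted p = 0.0435), LIM domain proteins of the plaque, were lower, and ZYX, TES and VASP were not called. Both calls were lost without C1 replicate 1 (LPP -0.28, adjusted p = 0.127; PDLIM7 -0.19, adjusted p = 0.229). ZYX, zyxin, had 55.9 and 59.3 CPM at 0.05 μM, above the 42.2 and 37.6 CPM of C2, 46.3 and 33.3 CPM at 0.5 μM, and 87.6 and 32.4 CPM in C1.

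**Figure D4:**
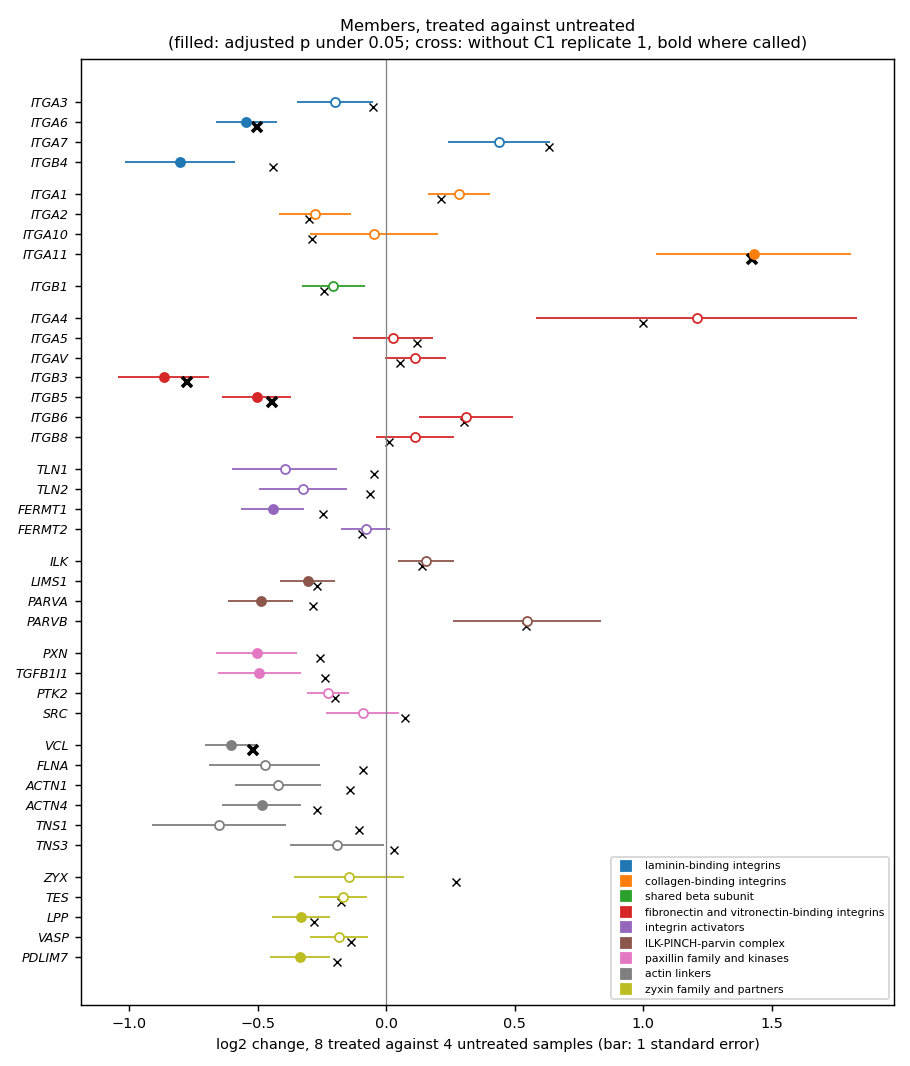
Log2 change of the 8 treated against the 4 untreated samples (x axis) for the 39 members by role, with bars of 1 standard error, filled points for adjusted p under 0.05, and crosses for the fit without C1 replicate 1, bold where called. With all samples 13 members are lower and ITGA11 is higher; without C1 replicate 1 the bold crosses are ITGA6, ITGB3, ITGB5, VCL and ITGA11.

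Of the 12 fits of treated against untreated samples that each left out 1 sample, the one without C1 replicate 1 called the fewest members. The plaque genes were higher in C1 replicate 1 than in C1 replicate 2 by a median of 0.79 on the log2 scale, the integrin subunits by 0.26 and all genes of at least 5 CPM by 0.12. TLN1 had 505 CPM in the first and 180 CPM in the second, and PXN 265 and 126 CPM. Spearman's rho of this difference with exonic GC content was 0.64 over the 23 plaque genes and 0.54 over the 11091 genes of at least 5 CPM with a known GC content, a description across genes that share 1 pair of libraries; in the C2 pair these were 0.33 and 0.35. The part of GC content in the treated against untreated result was not tested beyond the offsets given below. Without C1 replicate 1 the members called fell from 14 to 5 (12.8% of 39, beside 16.3% of all genes): ITGA6, ITGB3, ITGB5 and VCL lower and ITGA11 higher. Without C1 replicate 2 all 14 calls were kept and TLN1, TLN2, FLNA and ACTN1 were added (18 members, beside 27.5% of all genes). In the fit without C1 replicate 1 the plaque median was -0.14 and that of the laminin- and collagen-binding chains -0.17, beside -0.10 for all genes of at least 5 CPM. Without C2 replicate 1 the count was 8, beside 18.6% of all genes, and ITGB5 was not among them. With offsets for GC content and length 15 members were called, beside 26.1% of all genes. Of the 14 calls 12 were kept, and LIMS1 and LPP were lost. ITGA7, ITGA1 and ITGAV were added, all higher (log2 changes of 0.64, 0.45 and 0.29, adjusted p = 0.0199, 0.00568 and 0.0464). VCL and ITGA6 had log2 changes of -0.47 (adjusted p = 0.000206) and -0.45 (adjusted p = 0.00462), and the plaque median was -0.18 with these offsets. The median of the laminin- and collagen-binding chains was then 0.04 and that of genes of at least 5 CPM -0.04. With C2 as the only control, PXN, TGFB1I1, FERMT1, PARVA, LIMS1, ACTN4, LPP, PDLIM7 and ITGB4 were not called (adjusted p from 0.0516 to 0.107), with log2 changes from -0.28 (FERMT1) to -0.55 (ITGB4). Those of LIMS1 (-0.35), LPP (-0.34) and PDLIM7 (-0.30) were about as large as with all 4 untreated samples. Against C2 alone 5 members were called, 4 of them lower (ITGA6, ITGB3, ITGB5 and VCL) and ITGA7 higher, beside 13.5% of all genes.

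**Figure D5:**
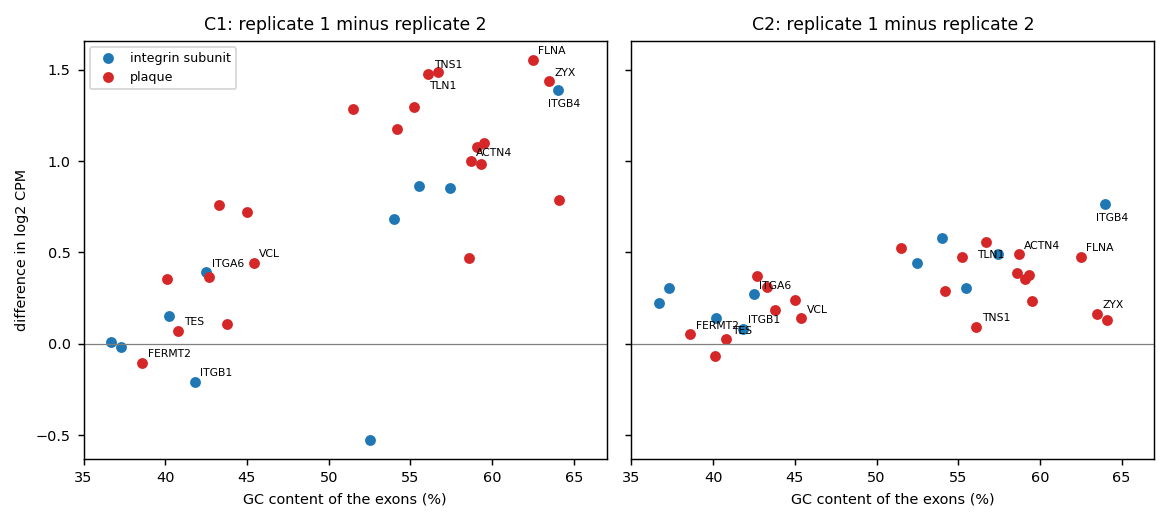
Difference in log2 CPM between replicate 1 and replicate 2 (y axis) against the GC content of the exons in percent (x axis) for the members with a mean of at least 5 CPM, in C1 (left) and C2 (right), with integrin subunits in blue and plaque genes in red. In C1 FLNA, TLN1, TNS1, ZYX and ITGB4 lie highest, PDLIM7, with the highest GC content (64.1%), is at 0.79, and the difference has Spearman's rho of 0.64 with GC content over the 23 plaque genes.

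The rest of the pathway was described from 67 further genes. Of 57 other adhesion plaque genes 55 were tested, and 13 were lower (23.6%) and 2 higher (3.64%) in treated against untreated samples, beside 11.3 and 13.1% of all genes. All 13 were among the 51 with a mean of at least 5 CPM (25.5%, beside 20.4% of all genes at that level). Their median log2 change was -0.23 over the 55. Without C1 replicate 1, 6 were lower (10.9%, with 1.82% higher) and the median was -0.06. Without C1 replicate 2, 21 were lower (38.2%, with 1.82% higher) and the median was -0.28. Against C2 alone 9 were lower (16.4%, with 1.82% higher). In these fits 16.3, 27.5 and 13.5% of all genes were called in either direction, and the share called lower is not given. Those lower included KANK2, a talin-binding scaffold, DOCK1, an exchange factor for Rac, and PDLIM5, a LIM domain protein, with log2 changes of -0.65 (SE 0.16), -0.64 (SE 0.12) and -0.58 (SE 0.11) and adjusted p-values of 0.00743, 0.00127 and 0.00116. PDLIM5 had 251 to 327 CPM in the untreated and 164 to 233 CPM in the treated samples, with no overlap, and DOCK1 48.2 to 83.8 and 35.4 to 45.2 CPM, also with none. KANK2 had 52.2 to 114 CPM without and 38.3 to 58.6 CPM with drug, which overlapped. EVL, RAPGEF1 and FBLIM1 were called lower too, with log2 changes of -0.52, -0.49 and -0.47, and their treated samples also overlapped with the untreated ones. Without C1 replicate 1 these were not called (-0.27, -0.26 and -0.37, adjusted p = 0.182, 0.287 and 0.119), whereas KANK2 (-0.40, adjusted p = 0.049), DOCK1 (-0.47, adjusted p = 0.00559) and PDLIM5 (-0.51, adjusted p = 0.00623) were. SDC4, syndecan-4, a proteoglycan that acts beside integrins in focal adhesions, was picked out after its values were seen: it had 199 and 152 CPM in C1, 311 and 295 CPM in C2, and 523 and 619, 386 and 381, 335 and 331, and 305 and 255 CPM at the rising doses. It was highest at the lowest dose (log2 change against C2 0.91, SE 0.17, adjusted p = 0.0134) and fell with dose among the treated samples (slope -0.33, SE 0.05, adjusted p = 0.00173).

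Of 10 other integrin subunits 8 were tested, and 6 were higher in the treated samples: ITGAM, ITGA9, ITGAD, ITGA2B, ITGB7 and ITGAX, each with a mean under 2 CPM, beside 20.9% of all genes with a mean under 5 CPM called higher. These are chains of leukocyte or platelet receptors, apart from ITGA9, and were also picked out after their values were seen. ITGAM, the alpha chain of the complement receptor, had 0.0702, 0, 0.0164 and 0.092 CPM in the untreated samples (0 to 5 counts). The treated samples had 0.718 and 0.782, 1.47 and 1.28, 2.06 and 2.34, and 1.32 and 1.51 CPM (46 to 179 counts), all above the untreated ones, with a log2 change of 4.81 (SE 0.49, adjusted p = 8.49e-06). ITGB2, its beta partner, had 5.13 to 7.44 CPM without and 5.00 to 8.31 CPM with drug (log2 change 0.02, SE 0.13, adjusted p = 0.934). The leukocyte marker PTPRC was at 0 to 0.129 CPM in the untreated and 0.0736 to 0.281 CPM in the treated samples, and CD3E at 0 to 0.0164 and 0 to 0.0300 CPM; the part of such cells in the result was not tested.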

How the data were processed

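RNA was sequenced as paired-end reads from 12 samples. Per the labels and methods, the authors trimmed reads with Trimmomatic 0.39, checked them with FastQC 0.11.9, aligned them to GRCh37 with STAR 2.7.5 and counted reads per gene with Rsubread. The deposited values are raw counts, neither normalised nor pooled, and the single-sample columns equalled the series table in 12 of 12 cases. Annotation release and strand setting are not given in the sources used here.

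Analyses used R 4.3.3, edgeR 4.0.16, limma 3.58.1 and DESeq2 1.42.0. Genes were kept by filterByExpr with 6 conditions, scaled by TMM and tested two-sided by the edgeR quasi-likelihood test (robust) with Benjamini-Hochberg adjustment over 25249 genes; a call is an adjusted p under 0.05. Day and dose contrasts came from the fit of all 12 samples, treated against untreated from a fit of 2 groups, and the slope on log10 dose from the 8 treated samples. The SE is the log2 change divided by the square root of F. CPM is scaled to TMM library sizes, with a prior count of 2 on the log2 scale. Lengths and GC content (both over all annotated exons of a gene merged) and GRCh37 coordinates came from GENCODE. The tests ran on simulated counts with 200 changed genes first. The total of 38380629 to 79169121 counts per sample sets the counting precision, and with 2 samples a condition the spread between samples limits it further. The labels call the samples of a condition replicates. P-values of the day and dose contrasts rest on a spread within conditions that all 6 conditions share. In treated against untreated samples, day and dose are part of the spread. For the slope it is the spread about a line over the 4 doses.

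All 39 members are named; of the other pathway genes, at most 6 per direction with a call and a mean of at least 5 CPM, ranked by log2 change in the comparison with the lowest adjusted p. Members and lists were chosen with earlier results of these data known. Medians over lists have no test. Some marker genes are not reported here. The other pathway genes without a C1 sample and against C2 alone were added after the data were seen. Alternatives were DESeq2, RLE scaling, no filter, no robust estimation, the replicate block, offsets for GC content and length (loess), day 4 controls alone, and leaving out each sample. Correlations of replicate differences between conditions ran from -0.600 to 0.682, with 8 of 15 pairs of conditions over 0.1, so the replicate numbers were not taken as pairs.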

Additional observations from a re-analysis of the deposited data

Results flagged for a closer look

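TNS1, a tensin of the plaque, stood out in C1 replicate 1 among the 4 untreated samples: its 13.8 CPM lay far above the 4.78 to 5.11 CPM of the others, and on the log2 scale the gap took 0.938 of the whole range. ITGA4, the alpha 4 chain, stood out in replicate 2 at 0.0005 μM among the 8 treated samples: no count was found there, while the others had 0.0944 to 0.170 CPM, and on the log2 scale the gap took 0.749 of the range. That library held 0 counts, which allows up to 3 counts, and the others held 7 to 13. Chance alone flags about 1 in 20 groups, and 78 groups of samples (39 members in untreated and in treated samples) were looked at.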

How the results depend on the processing

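Of the 21 member results that passed the test, 427 alternative values were computed; 317 kept direction and call, 110 kept the direction without the call, and 0 reversed. VCL, ITGA6 and ITGB3 kept their call in treated against untreated samples under every alternative run, each left-out sample included. Limits are the 2 samples a condition, the unequal C1 pair, and controls that hold 2 days. The causes of the shifts below were not tested, and fits that left out 1 sample also rest on fewer samples.

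DESeq2 called 1 member for C2 against C1, 3 at 0.005 μM, 7 at 0.05 μM, 6 at 0.5 μM and 4 for the dose slope, beside 1.09, 5.39, 10.6, 9.11 and 6.48% of all genes. Without the filter the counts were 2 for C2 against C1, 2, 5, 8 and 8 at the rising doses and 2 for the slope, beside 0.797, 3.03, 3.9, 5.65, 5.74 and 2.98%. In treated against untreated samples the count without the filter was 10, beside 11.7% of all genes, and ITGB4, LIMS1, LPP and PDLIM7 were no longer called. With GC and length offsets they were 1 at 0.0005 μM, 3 at 0.005 μM, 5 at 0.5 μM and 2 for the slope, beside 5.04, 5.7, 10.3 and 5.93%. With day 4 controls alone 5 members (beside 13.5% of all genes) were called in treated against untreated samples. The median of the laminin- and collagen-binding integrins minus that of the plaque was then -0.0512.

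With the replicate number as a block 2 members were called at 0.005 μM and 5 at 0.5 μM, and 14 in treated against untreated samples, beside 3.55, 7.15 and 24.2% of all genes; no call of the fit without the block was lost. With offsets and block together the counts were 1, 5 and 8 at 0.0005, 0.005 and 0.5 μM and 2 for the slope, beside 4.99, 6.09, 10.6 and 4.21%.

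Leaving out 1 sample at a time, members called ranged from 0 to 12 for C2 against C1, 0 to 3, 0 to 9, 0 to 10 and 0 to 21 at the rising doses, 0 to 2 for the slope and 5 to 18 in treated against untreated samples. In the same order the share of all genes called ranged from 0.186 to 11%, 0.558 to 10.2%, 0.333 to 13%, 1.28 to 19%, 0.507 to 19.9%, 0.491 to 4.03% and 16.3 to 27.5%. The difference of medians, integrins minus plaque, ranged from 0.0943 to 0.543 for C2 against C1, 0.03 to 0.15, -0.02 to 0.11, -0.16 to 0.10 and -0.05 to 0.09 at the rising doses, -0.01 to 0.05 for the slope and -0.0286 (without C1 replicate 1) to 0.42 (without C2 replicate 1) in treated against untreated samples.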
